A study of Mus musculus with 6 samples.

Results

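The 8 genes described here are Fn1, Thbs1, Tnc, Sparc, Fbn1, Fstl1, Lamc1 and Nid1, which encode fibronectin and other glycoproteins of the extracellular matrix, out of 22380 protein-coding genes of the mm9 annotation. They were chosen by their numbers of YTHDC1 peaks in these same libraries together with their role in the matrix, so their peak numbers are given as a description and without a test. YTHDC1 binding was measured by LACE-seq, in which cells are irradiated with UV light, YTHDC1 is immunoprecipitated together with its crosslinked RNA, and reverse transcription stops at the crosslinked nucleotide. ASC-48h are mouse satellite cells, the stem cells of skeletal muscle, after 48 hr in culture on dishes coated with polylysine and extracellular matrix, and they gave 4 libraries, from biological replicates B1 and B2 with a technical repeat of each (T1, T2). C2C12 is an established mouse myoblast line, which gave 2 libraries, replicates 1 and 2. All cells were labelled wild type, and the same YTHDC1 antibody was used for each library. The labels name the C2C12 libraries as biological replicates and the study's results text as technical ones, so the spread between them may be technical. Many more cells went into each C2C12 library than into the ASC-48h ones.

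Matrix glycoproteins are secreted proteins that fill and organize the space between cells. Fibronectin is a large dimer built from repeated modules, it binds integrins and collagen, and its mRNA is spliced in several forms. Satellite cells lie under a basal lamina of laminin, nidogen, collagen IV and perlecan, and activated satellite cells remodel their niche by secreting fibronectin. YTHDC1 is a nuclear reader of N6-methyladenosine (m6A) in RNA and is known for roles in splicing and nuclear export.

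A peak is a stretch of one or more adjacent 20-nt bins that the authors' peak caller Piranha marked in 1 library, given with its number of reads per bin. Because of how the libraries are built, a read lies on the strand opposite to its gene, and peaks on that strand are called RNA-strand peaks below. The lists held between 7925 and 19448 peaks in ASC-48h and 60540 and 71992 in C2C12, and the lowest number of reads per bin was 4 or 5 in ASC-48h and 6 in C2C12. A shared peak is a C2C12 replicate 1 peak on the same strand as a replicate 2 peak with which it had 1 nt or more in common, of which there were 29087. Several replicate 1 peaks can overlap 1 wide replicate 2 peak, and each of them then counts as shared. Total reads per library are unknown from lists of peaks. Among marker genes, the myoblast genes Des, Cdh15 and Myf5 had 9, 3 and 2 shared peaks and Myod1 and Pax7 had 0. In C2C12 replicates 1 and 2, Myod1 had 5 and 3 peaks and Pax7 had 0 and 1. Of the markers of other cell types, Ly6a and Pdgfra (fibro-adipogenic cells) had 2 and 1 shared peaks, Pecam1 (endothelium) had 1, and the other 8, with all 4 of macrophages, had 0. Over the 4 ASC-48h libraries Des, Cdh15, Myf5, Myod1 and Pax7 had 8, 0, 1, 9 and 14 peaks. Of the other markers only Pecam1 had any there, with 4. A peak number depends on the amount of a transcript as well as on binding, and without an input library more RNA and more binding cannot be told apart.

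The sequences below are the shared peak with most reads in each gene that had one and the 2 shared peaks in the Fn1 exons that an annotated transcript skips whole. The coding-exon peaks that an ASC-48h library had in common with both C2C12 libraries are also shown. They are written 5′ to 3′ as the RNA reads, with T for U, and capitals mark bases that lie in the intron.
Fn1, exon 8, chr1:71688521-71688540, minus strand: gcacagaccatgcggGTGAG
Thbs1, 3′UTR, chr2:117951781-117951800, plus strand: ttattttgttcccctattct
Tnc, exon 2, chr4:63678561-63678580, minus strand: tggccgctgcctcaacgggc
Sparc, 3′UTR, chr11:55208181-55208200, minus strand: accccctgccacttgaaacc
Fstl1, 3′UTR, chr16:37836401-37836420, plus strand: ccaaatccatgtgagcactc
Lamc1, 5′UTR, chr1:155179741-155179760, minus strand: cggcccgcagcggaggatcg
Nid1, 3′UTR, chr13:13603261-13603280, plus strand: ttagtttctggtctatgacg
Fn1, alternative exon 25, chr1:71660521-71660540, minus strand: cgctaaactcttccaccatt
Fn1, alternative exon 33, chr1:71650381-71650400, minus strand: ctactcgagccctgaggatg
Fn1, exon 40, chr1:71643901-71643920, minus strand: ttccaggagagttctgagta
Sparc, exon 8, chr11:55209301-55209320, minus strand: gctttggcatcaaggagcGT
All coordinates are those of mm9. Whole genes lie at chr1:71632094-71699774 (Fn1, minus strand), chr2:117937612-117952869 (Thbs1, plus), chr4:63620819-63681760 (Tnc, minus), chr11:55208002-55233582 (Sparc, minus), chr2:125126330-125333729 (Fbn1, minus), chr16:37776959-37836600 (Fstl1, plus), chr1:155066052-155179916 (Lamc1, minus) and chr13:13529869-13604542 (Nid1, plus). The highest Fn1 peak held the last 15 nt of exon 8 and the first 5 nt of the next intron, and the Sparc exon 8 peak held 18 nt of exon and the first 2 nt of the intron, so both contain a 5′ splice site. The Thbs1 sequence occurs at 2 places in the genome and the other 10 at 1.

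The 8 genes held 333 RNA-strand peaks in C2C12 replicate 1 and 356 in replicate 2, which is 0.550% and 0.494% of the 2 lists, and 212 shared peaks. On the strand of the gene they held 1 and 2 peaks. At least 1 shared peak was found in 7 of the 8 genes and in 21.8% of all protein-coding genes, and 10 or more were found in 5 of the 8 and in 2.07% of all. These shares describe how the genes were chosen and nothing is read from them.

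Fn1 had 124 peaks in replicate 1, 127 in replicate 2 and 94 shared peaks, which placed it at rank 5 among the protein-coding genes. Thbs1, thrombospondin 1, which activates TGF-β and binds CD36 and CD47, had 45, 57 and 35 shared. Nid1, the basement membrane protein nidogen that links laminin to collagen IV, had 58, 62 and 34 shared. Fstl1, a secreted follistatin-like glycoprotein, had 47, 36 and 19 shared, and was 1 of 2 genes with more peaks in replicate 1. Sparc, osteonectin, a collagen-binding glycoprotein that modulates cell adhesion, had 20, 25 and 14 shared. Lamc1, the laminin γ1 chain, had 22, 20 and 9 shared, and Tnc, tenascin C, which counters adhesion to fibronectin, had 13, 20 and 7 shared. Fbn1, fibrillin 1, the backbone of microfibrils, had 4 peaks in replicate 1 and 9 in replicate 2, and none of them overlapped. The order of Fn1, then Thbs1 and Nid1, then the others was the same in shared peaks as in replicate 2, and in replicate 1 Fstl1 exceeded Thbs1.

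**Figure D1:**
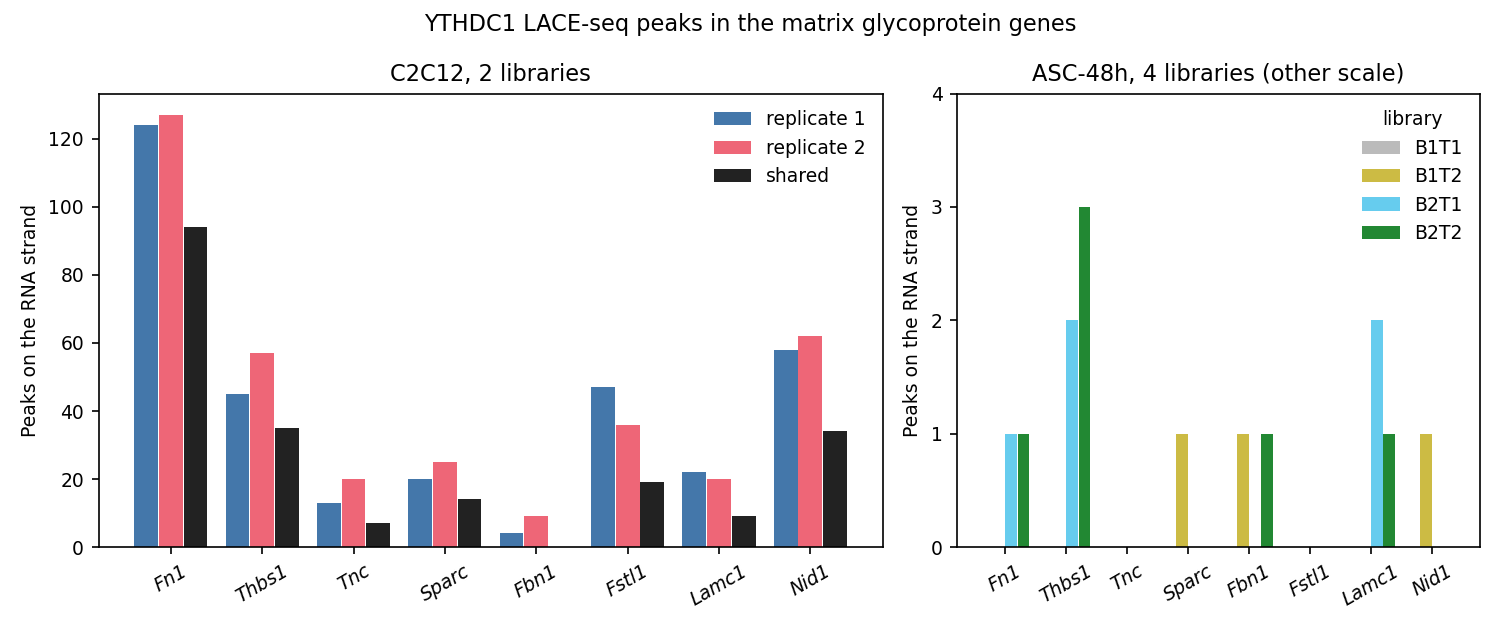
Number of RNA-strand peaks (vertical axis) in each gene (horizontal axis). Left, the 2 C2C12 libraries and the peaks shared between them; right, the 4 ASC-48h libraries on another scale. Fn1 reaches 124 and 127 peaks in C2C12, while no gene has more than 3 in an ASC-48h library.

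Most of the shared peaks lay in exon sequence, which does not tell spliced from unspliced RNA. Coding exons held 135 of the 212 (63.7%, exact Clopper-Pearson 95% interval 56.8 to 70.2 across peaks), 3′UTRs 50 (23.6%), introns 21 (9.91%) and 5′UTRs 6. Over all protein-coding genes, coding exons held 41.3% of 19610 shared peaks, introns 33.3% and 3′UTRs 19.2%, and in the 464 genes with at least 10 shared peaks 41.8% lay in coding exons. Fn1 alone gave 77 of the 135 coding-exon peaks. Without it, 58 of 118 shared peaks (49.2%, interval 39.8 to 58.5) lay in coding exons, 33.9% in 3′UTRs and 12.7% in introns. Peaks of 1 transcript are not independent, so the interval covers counting error only.

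The genes also differed once their length was counted in. Fn1 had 12.6 coding-exon peaks per kb of coding exon in replicate 1 and 13.0 in replicate 2 (mean 12.8 ± 0.285, SD, n = 2 libraries). Sparc followed with 6.60 and 9.90, Thbs1 with 7.39 and 9.10, Nid1 with 8.29 and 8.03, and Fstl1 with 7.60 and 4.34. The ranges of Sparc and Thbs1 overlapped those of all the other three, Nid1 lay above Fstl1 in both libraries, and Fn1 stood above all 4. Tnc had 2.02 and 2.95, Lamc1 1.42 and 1.42, and Fbn1 0.348 and 0.696 per kb. In shared peaks the values were 10.4 for Fn1, 6.60 for Sparc, 5.40 for Thbs1, 5.35 for Nid1, 2.17 for Fstl1, 1.09 for Tnc, 0.813 for Lamc1 and 0 for Fbn1.

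Introns held far fewer peaks per kb, as they did over all protein-coding genes, with 0.226 shared peaks per kb of coding exon and 0.00696 per kb of intron. In the 464 genes with at least 10 shared peaks these values were 2.34 and 0.0696. In Fn1 the density of shared peaks was 10.4 per kb of coding exon and 0.101 per kb of intron, a ratio of 102. In single libraries the Fn1 ratio was 44.1 in replicate 1 and 38.7 in replicate 2. In Sparc the shared ratio was 147, with 1 shared intron peak behind it, and the libraries gave 36.7 and 55.0. In Nid1 it was 52.5, with 35.6 and 26.2 in the libraries and 349 from peaks that occur once in the genome. That last value has 1 shared intron peak behind it, whose midpoint lies 3 nt from an exon and whose bin reaches into it. Thbs1 had 24.8 (34.0 and 16.7) and Fstl1 23.8 (21.9 and 14.9). The order of Fn1 and Sparc thus differed between the libraries, and coding exons exceeded introns in both libraries in all 5 genes. Tnc and Lamc1 had no shared intron peak in 53.4 and 106 kb of intron.

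The 3′UTR share differed between the genes. Fn1 had 15.9 3′UTR peaks per kb in replicate 1 and 11.6 in replicate 2, Sparc 8.29 and 10.1, Fstl1 7.34 and 5.80, Thbs1 6.18 and 8.08, Nid1 4.53 and 4.53, and Lamc1 3.66 and 2.44. Fn1 was the highest in both libraries. In shared peaks Fn1 had 14.5 shared peaks per kb of 3′UTR (10 peaks), Thbs1 5.70 (12 peaks), Sparc 5.53 (6 peaks), Fstl1 4.64 (12 peaks), Nid1 2.72 (6 peaks) and Lamc1 1.63 (4 peaks). Replicate 2 had only 8 peaks in the Fn1 3′UTR, so some of the 10 overlapped the same replicate 2 peak. In Fstl1, 12 of 19 shared peaks lay in the 3′UTR and 2 in coding exons, whereas in Tnc all 7 lay in coding exons and the 3′UTR had no peak in either library. The highest peaks of Thbs1, Sparc, Fstl1 and Nid1 lay in the 3′UTR, among them the highest peak of all 8 genes, in Nid1, with 25 reads per bin in replicate 1 and 19 in replicate 2. Of the other genes' own highest peaks, that of Fstl1 had 18 and 18, of Thbs1 17 and 18, of Fn1 (exon 8) 16 and 14, of Sparc 11 and 14, of Lamc1 (5′UTR) 11 and 11 and of Tnc 6 and 9. Of the 50 shared 3′UTR peaks, 15 lay within 500 nt of the annotated end of the gene. Fn1, whose 3′UTR is 0.692 kb long, gave 6 of these. The share of 3′UTR length within that limit was not counted, so nothing is read from the number.

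**Figure D2:**
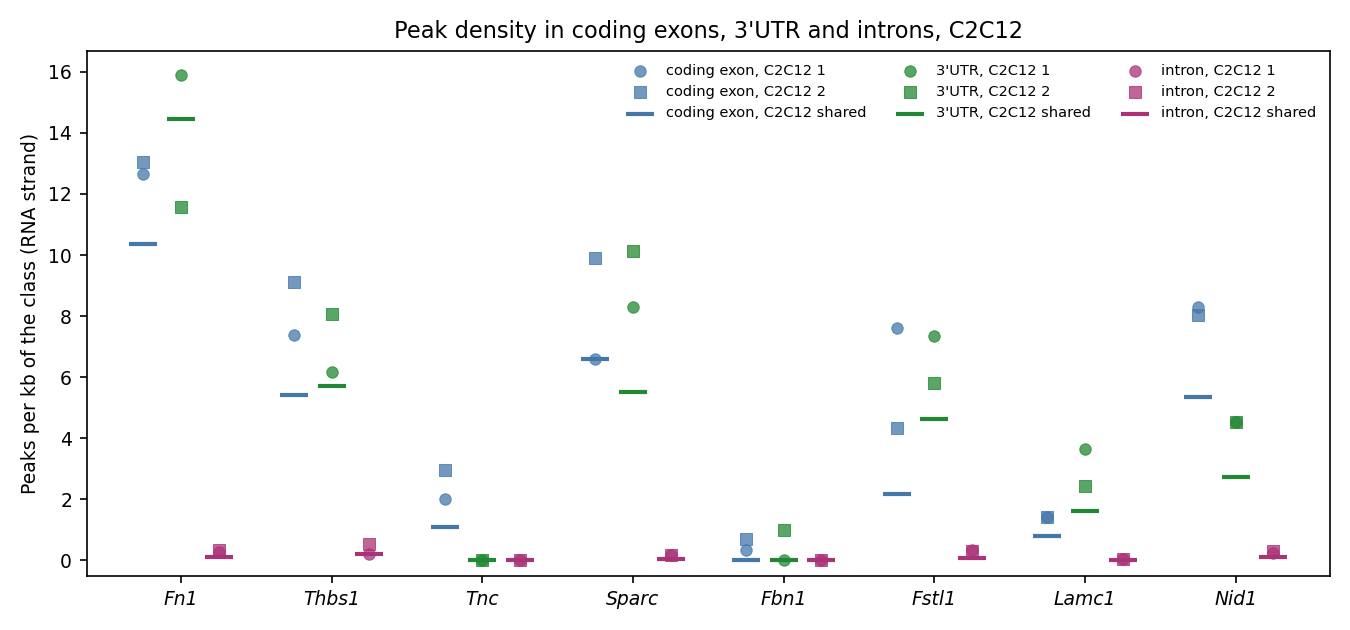
Peaks per kb (vertical axis) of coding exon, 3′UTR and intron for each gene (horizontal axis) in C2C12 replicate 1 (circles), replicate 2 (squares) and shared between them (bars). Intron values lie near 0 in every gene, and Fn1 has the highest coding-exon values, 12.6 and 13.0.

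Fn1 peaks were spread over almost all of its coding exons. All 46 coding exons held a peak in at least 1 library, 45 in both, and 44 held a shared peak. Shared peaks covered 36.6% of the coding bases, and their density over 3 equal parts of the coding sequence was 8.88 per kb in the first, 11.7 in the middle and 10.5 in the last. Exons 2 and 3 had no shared peak. Exon 40, with 467 nt the longest, held 8 peaks in each library, all of them shared. In Nid1, 14 of 20 coding exons held a shared peak, in Thbs1 13 of 21, in Sparc 5 of 9, in Tnc 5 of 26, in Lamc1 4 of 29 and in Fstl1 2 of 10. In Fbn1, 57 of 65 coding exons had no peak in either library.

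The 2 Fn1 exons that an annotated transcript skips as a whole, called alternative exons here, had fewer shared peaks than the rest. Only exons skipped whole in the annotation are counted, so the other 44 exons may hold alternatively spliced sequence. In the annotation exon 25 (273 nt) is part of 1 of 3 protein-coding transcripts and exon 33 (270 nt) of 2, and they encode the fibronectin repeats known as extra domains B and A. Exon 25 had 2 peaks in each library and exon 33 had 3 and 4, but in each exon 1 was shared. That is 3.68 shared peaks per kb over the 543 nt, against 10.9 per kb over the 6891 nt of the other 44 exons. Shared peaks covered 7.33% of exon 25 and 7.41% of exon 33, the lowest values among the 44 exons with a shared peak, against 38.9% over the other exons.

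The gap was smaller in single libraries. Reads in called bins came to 109 and 99.4 per kb of alternative exon in replicates 1 and 2 (mean 104 ± 6.51, SD, n = 2), against 190 and 188 in the other exons and 173 and 205 in the 3 other exons of over 200 and up to 300 nt. By number of peaks the other exons had 1.40 times the density of the alternative ones in replicate 1 and 1.2 times in replicate 2, and 2.95 times in shared peaks. At a Piranha p of at most 0.00001 the ratio turned to 0.867, with 1 shared peak left in the 2 exons. Exon 25, with 80.6 reads per kb on average, was the 5th lowest of the 46 exons and exon 33, with 128, the 11th lowest. Whether C2C12 cells skip these exons was not tested.

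Introns 24 and 33, each beside an alternative exon, held the most peaks of the Fn1 introns. Replicate 1 had 17 peaks in the 45 Fn1 introns and replicate 2 had 20, and 9 of them in each library lay in introns 24, 25, 32 and 33, which flank exons 25 and 33 and make up 4638 of the 59337 nt. Intron 24 had 4 and 3 peaks and intron 33 had 3 and 4, whereas introns 25 and 32 had 1 in each library, as intron 41 did, and fewer than intron 42 with 2 and 2. Of the 6 shared intron peaks, 3 lay in intron 33 and 1 in intron 32, so that the 4 flanking introns had 0.862 per kb against 0.0366 per kb in the other 41. These 4 peaks lay 39 to 519 nt from the nearest exon and had 6 to 9 reads per bin. Around exon 25, replicate 1 had 5 peaks and replicate 2 had 4, and none was shared. This grouping was looked for after the values were seen and rests on a few peaks.

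**Figure D3:**
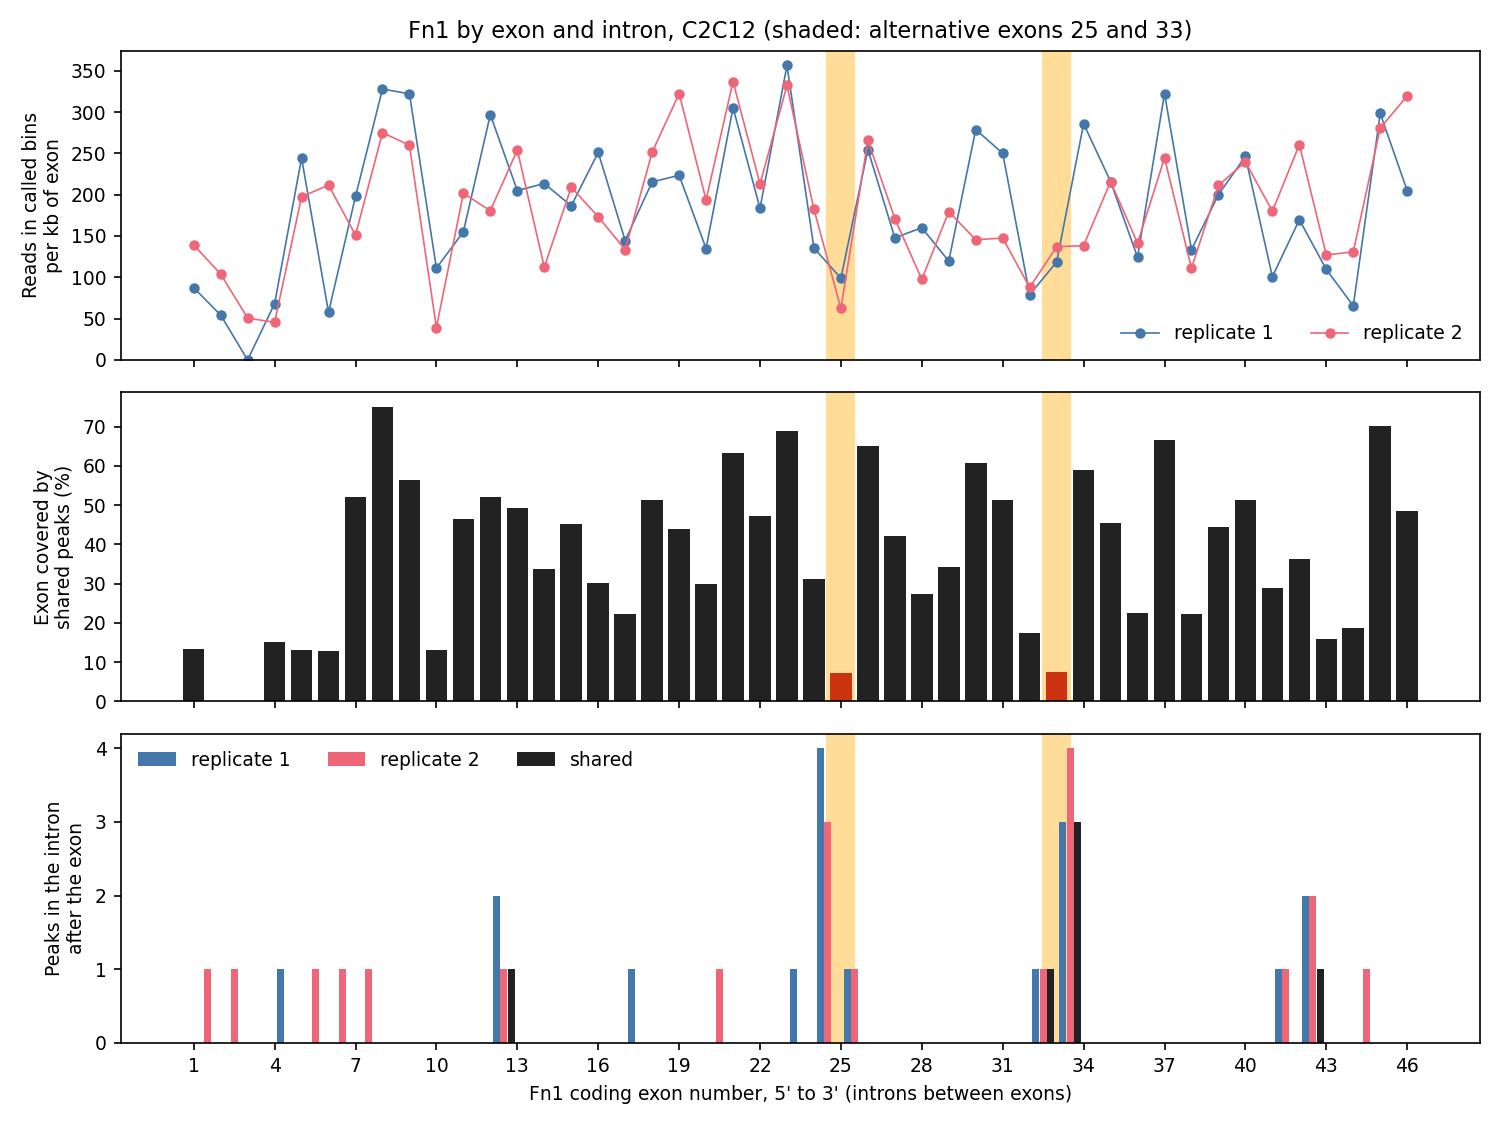
Fn1 in C2C12 by exon number (horizontal axis, 5′ to 3′), with the alternative exons 25 and 33 shaded. Top, reads in called bins per kb of exon in each library; middle, percent of the exon covered by shared peaks; bottom, number of peaks in each intron. Exons 25 and 33 have low coverage (7.33% and 7.41%), and introns 24 and 33 hold the most peaks.

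Intron peaks of the other genes had different positions. All 5 in Fstl1 lay in intron 2, between 8614 and 18734 nt from the nearest exon. In Nid1, 6 of 7 lay in intron 1, and the sequence of each occurs at 2 places in the genome, so that reads from another place may add to them. Both Thbs1 intron peaks lay within 5 nt of an exon, and their bins reach into it. In Tnc, 6 of the 7 shared peaks lay where the lincRNA 8030451A03Rik is annotated on the opposite strand. Their reads lay on the strand opposite to Tnc, which in these libraries is that of reads from Tnc RNA. Likewise, 2 shared Fn1 peaks lay where Apol7d is annotated on the opposite strand. Tnc has 6 alternative exons in the annotation, with 2 shared peaks over 1638 nt, both in exon 14, or 1.22 per kb against 1.04 in its other exons.

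Over all 8 genes, 8 of 209 bins with a 3′ border of an exon and 6 of 209 with a 5′ border were in a shared peak. The exons are those of the transcript with the longest coding sequence, noncoding exons included. The bin that holds the 3′ border of an exon, where the 5′ splice site lies, was in a shared peak at 7 of 43 borders in Fn1, at 1 of 9 in Sparc and at none in the other 6 genes. The bin with the 5′ border was in a shared peak at 1 of 41 borders in Fn1, 3 of 21 in Thbs1 and 2 of 19 in Nid1. A bin does not tell on which side of a border its reads ended, and reads over an exon-exon junction could not be placed by the aligner used, which did not split reads. Over all 8 genes, bins whose centre lay within 20 nt of the 5′ end of a coding exon held 4.44 shared peaks per 100 bins. At 20 to 40 nt, 40 to 60 nt and beyond 60 nt they held 8.0, 9.42 and 7.43. From the 3′ end the values in the same order were 5.33, 6.67, 10.3 and 7.35, so both ends had the lowest pooled value. Single genes differed. Fn1, with 77 of these peaks, had 8.70, 26.1, 23.9 and 21.5 from the 5′ end. From the 3′ end it had 23.9 within 20 nt and 18.9 beyond 60 nt. Thbs1 and Nid1 had 0 within 20 nt of the 3′ end. At the 5′ end both had 10, against 9.48 beyond 60 nt in Thbs1 and 5 at 20 to 40 nt in Nid1. Fbn1, without a shared peak, gave 65 of the 225 bins at each end. Each peak was counted once, at its midpoint, so a wide peak that reaches an exon end counts further in.

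Peaks of these genes were mostly found again in the second library, a share that is not independent of how the genes were chosen. Of the 333 replicate 1 peaks, 63.7% (interval 58.2 to 68.8) overlapped a replicate 2 peak, against 48% of the whole list. At 6 to 8 reads per bin (8 not included) the shares were 45.5% and 34.4%, at 8 to 10 reads 73.1% and 59.2%, and at 10 or more 86.9% and 82.7%, so the gap was smaller among high peaks. By gene the share was 77.8% in Thbs1, 75.8% in Fn1, 70.0% in Sparc, 58.6% in Nid1, 53.8% in Tnc, 40.9% in Lamc1, 40.4% in Fstl1 and 0 of 4 in Fbn1. Neither library had more reads per bin throughout, with replicate 1 higher at 90 shared peaks, replicate 2 higher at 91 and both equal at 31. Single peaks could differ, with 22 and 10.5 reads at a Thbs1 3′UTR peak and 6 and 14 at a Sparc one. Between the libraries, peak density across coding exons had a Pearson r of 0.440 in Fn1, and from -0.0497 in Fbn1 to 0.739 in Sparc. The median was 8.83 reads per bin over the shared peaks of the 8 genes and 8.17 over the shared coding-exon peaks of all genes.

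GGAC is a form of RRAC, the core of the RRACH sequence (R is A or G) in which m6A is made. Of the forms of this core only GGAC was searched, on the RNA strand within each peak and 20 nt on either side. It occurred at 37 of 135 shared coding-exon peaks of the 8 genes (27.4%, interval 20.1 to 35.7), at 27.1% of 1471 coding bins of the same genes without a peak in either library, and at 24.3% of 8081 shared coding-exon peaks of all genes. The reverse complement GTCC occurred at 25.2%, 19.9% and 22.8%. A peak wider than 1 bin gives a longer window, and among the 86 peaks of 1 bin 23.3% held GGAC. The longer GGACT occurred at 0 of the 135 (interval 0 to 2.70), at 6.46% of the bins without a peak and at 6.11% of the coding-exon peaks of all genes, and at 3 of the 50 peaks in 3′UTRs. No GGACT in these windows says nothing about m6A elsewhere in the transcripts.

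Coding-exon peaks held more cytosine than the coding bins of the same genes without a peak. Cytosine made up 31.0% of the bases of the 8 genes' shared coding-exon peaks, against 25.4% in the 1471 coding bins without a peak (25.9% without the bins of Fbn1, which has no shared peak) and 32.2% in the peaks of all genes. Guanine was lower, at 25.1% against 27.7%, and adenine was 23.4% against 25.7%. The difference had the same sign in each of the 7 genes with shared peaks, from 25% against 24.1% in Fstl1 (2 peaks) to 34.5% against 26.6% in Nid1 (20 peaks). In Fn1 it was 30.5% against 25.9%.

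**Figure D4:**
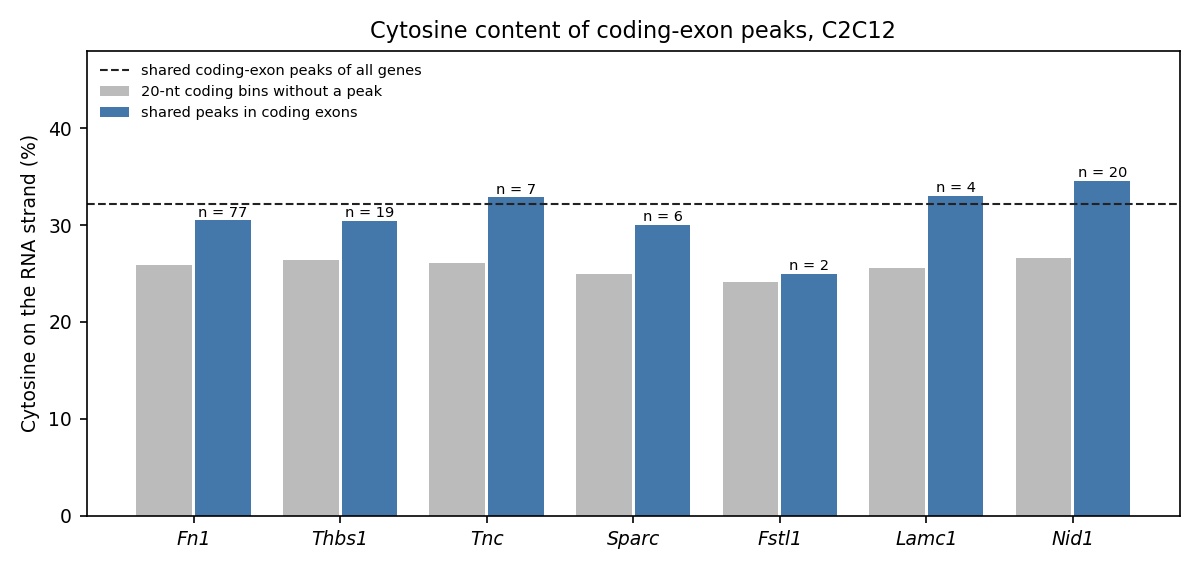
Percent of cytosine on the RNA strand (vertical axis) in coding bins without a peak and in shared coding-exon peaks of each gene, with the number of peaks above the bars. The dashed line is the value for the shared coding-exon peaks of all protein-coding genes, 32.2%. The peaks exceed the other bins in each of the 7 genes.

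In ASC-48h the 8 genes held 0 and 3 RNA-strand peaks in the T1 and T2 libraries of B1, and 5 and 6 in those of B2, or at most 0.0631% of a list. In B1 T1 none of the 8 had a peak (background 7.81% of genes), in B1 T2 3 (background 9.98%), in B2 T1 3 (background 9.10%) and in B2 T2 4 (background 18.5%). A peak in at least 1 of the 4 libraries was found in 6 of the 8 genes and in 25.0% of all genes. Thbs1 had 2 peaks in B2 T1 and 3 in B2 T2, Lamc1 had 2 and 1, and Fn1 1 and 1, all of them in B2. Fbn1 had 1 in B1 T2 and 1 in B2 T2, Sparc and Nid1 had 1 each in B1 T2, and Tnc and Fstl1 had none. No peak of the 14 overlapped a peak of another ASC-48h library, so none was repeated between technical or biological replicates. Depth is unknown in both cell types, and no difference between ASC-48h and C2C12 as conditions was tested.

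Of the 14 ASC-48h peaks, 8 lay in coding exons, 1 in a 5′UTR and 5 in introns. All 5 that overlapped a C2C12 peak lay in exons. A peak at 3 sites was common to an ASC-48h library and both C2C12 libraries, and their sequences are shown above. The Fn1 exon 40 peak had 5 reads in B2 T1. The Lamc1 5′UTR peak had 5 reads in B2 T1 and was the highest Lamc1 peak in C2C12. The Sparc exon 8 peak, with its 5′ splice site, had 5 reads in B1 T2. The other 2 were in Thbs1 exons 5 and 14 and overlapped peaks of C2C12 replicate 2. The Thbs1 exon 5 peak had 11 reads per bin, the most among the 14, and its sequence occurs at 2 places in the genome.

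In a list of 52 other matrix glycoprotein genes, 22 (42.3%) had a shared peak, against 21.8% of all genes, and 3 (5.77%) had 10 or more, against 2.07%. The median was 0 per gene in this list and over all genes, and 16.5 over the 8 genes, which were chosen by peak number. Hspg2, which encodes the basement membrane proteoglycan perlecan, had 83, with 73 in coding exons (5.37 per kb). The next were Ltbp3 and Ltbp2, latent TGF-β binding proteins, with 18 and 9, Fbln2, fibulin 2, with 10, and Cyr61, an integrin ligand, with 8. Among 27 receptor genes of matrix glycoproteins, 16 (59.3%) had a shared peak and 4 (14.8%) had 10 or more, against the same 21.8% and 2.07%. Cd44, the hyaluronan receptor, had 17, the syndecans Sdc1 and Sdc2 had 14 and 13, the laminin receptor subunit Itga7 had 11 and Dag1, dystroglycan, had 7. In Sdc2, 11 of the 13 lay in introns, whereas in Itga7 9 of the 11 lay in coding exons. Itga7 had 17 peaks over the 4 ASC-48h libraries, against 2 in Fn1.

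The genes most like Fn1 were looked for among 400 genes with at least 10 shared peaks and 1 kb of coding sequence, by the distance between their peak densities in coding exons, 3′UTR and introns of both libraries on a log2 scale. Plec, which encodes the cytolinker plectin, was nearest (distance 0.838), with 107 shared peaks and 6.07 per kb of coding exon. Psap, Flna, Anxa2 and Ahnak followed at 1.05, 1.06, 1.23 and 1.37. Their coding-exon densities ran from 5.95 per kb in Anxa2 to 8.76 per kb in Ahnak, all below the 10.4 of Fn1. Among the other 7 genes Sparc was nearest, at 1.60.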

How the data were processed

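LACE-seq peak lists of 4 ASC-48h and 2 C2C12 libraries were analysed. Per the labels and methods, the authors trimmed reads with Cutadapt (1.15), took out matches to pre-rRNA, aligned what was left to mm9 with Bowtie (1.2.3), and called peaks in each library with Piranha in bins of 20 nt; these peak settings are stated for ASC, and none other for C2C12. Reads could be placed at up to 10 positions. The deposited signal is the number of reads per bin, not normalized, and each peak's deposited p-value, unadjusted, comes from Piranha's fit to its own library.

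Peaks wholly inside a gene were counted on the strand opposite to it and classed at their midpoint over all protein-coding transcripts (GENCODE vM1, NCBIM37). Exons were numbered along the coding sequence. Shares have exact Clopper-Pearson 95% intervals. Densities are peaks per kb of class. Python 3.11.15, numpy 2.4.6, scipy 1.17.1 and pysam 0.24.0 were used. The counting code was run on simulated lists of 160 shared peaks, of which 100% were recovered in the class set for them. The same class rule set those classes and both lists held identical peaks of 1 bin. The run therefore checks the counting only, not the classes, wide peaks or partial overlaps. The members and lists were chosen with earlier results of these data known. The genes named are the 8 members, the 5 genes with most shared peaks in each list (ties by symbol), the 5 genes most like Fn1 and each member's highest shared peak; the markers, the peaks common to ASC-48h and C2C12 and the introns beside the alternative exons were named, and the pooled values without Fn1 or Fbn1 were added, after the data were seen. The distance is Euclidean over 6 log2 densities (plus 0.1 peaks per kb). Alternatives were another overlap, p, reads, list, class rule, motif window and gene margin, and leaving out each library.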

Additional observations from a re-analysis of the deposited data

Results flagged for a closer look

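Sparc and Nid1 each had 1 peak in ASC-48h B1 T2 and 0 in the other 3 libraries, so the gap between B1 T2 and the nearest other library was the whole range of the group (a gap over range of 1 in both genes). Any gene with exactly 1 peak in the 4 libraries gives this value, so the marks carry no weight: the rate of about 1 in 20 groups by chance holds for continuous values and does not apply to counts of 0 and 1. The 4 libraries are also technical repeats of 2 biological replicates. Of 9 groups looked at, 2 were marked.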

How the results depend on the processing

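Of 8 main values, none kept its size under all alternatives. With a Piranha p of at most 0.00001 in both libraries, shared peaks fell from 212 to 34, the median per gene from 16.5 to 2.5, the coding-exon share from 63.7% to 55.9%, the share found again to 43.0% and the alternative-exon peaks of Fn1 to 1, while the median ratio of coding-exon to intron density rose from 52.5 to 95.8. With at least 8 reads per bin the counts were 102, 6.5 and 1. The all-peak lists that leave out 1 replicate gave 333 to 356 peaks, a median of 30.5 to 33.5 per gene, 56.2% to 57.3% in coding exons, a ratio of 26.2 to 35.6 and 5 to 6 alternative-exon peaks. The ratio was 121 with single-copy peaks and 84.0 with classes by any overlap. GGAC was found at 25.5% of the 212 peaks, at 18.4% with 10 nt on either side, at 46.7% with 50 nt, and GGACT at 2.83%. The ASC-48h total of 14 was 2 at that p and 4 with at least 6 reads per bin, and 8 to 14 without each library in turn. The Fn1 ratio of other to alternative exons, looked at after the data were seen, reversed to 0.867 at that p. Among 115 values of single genes or libraries, 70 stayed within 1.5 times. The causes were not tested. No paired analysis was possible because no result comes from a test. Depth is unknown, so a gene without a peak may have had too few reads.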
